A study of Drosophila melanogaster with 12 samples.

Results

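Gene expression in embryos expressing the EnRep construct was compared with that in embryos expressing the HMG- construct, the pair of Dichaete derivatives that the design text of the series calls dominant negative. The comparison was the difference of log2 ratios over GFP, taken between the 4 arrays labelled UAS EnRep and the 4 labelled UAS HMG-, which are 8 of the 12 arrays of the series and were chosen by their labels alone. The other 4 arrays carry UAS Dichaete WT, abbreviated DichaeteWT. In the comparison they entered only the estimate of the spread and of the dye effect. Their ratios over GFP are given beside some results. In every cross, simGal4 females were mated with males carrying the UAS construct, and whole Drosophila melanogaster embryos of stage 8 to 9, aged 3.5 to 4.5 h, were collected at 25 °C. Each array set total RNA of such embryos against RNA of embryos in which the same driver expressed UAS GFP, so the driver was present on both sides of every ratio. The labels count 4 biological replicates per construct, with dyes swapped so that Cy3 marked the construct in replicates 1 and 2 while Cy5 marked it in replicates 3 and 4. Neither the transgene insertion sites nor the strain background is stated, and whether different arrays shared a GFP extract is not given.

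Dichaete, encoded by the gene D, is a SoxB transcription factor that binds DNA through an HMG domain and acts in the ventral midline and the neuroectoderm of the embryo. The midline cells, marked by the regulator single-minded (sim), give rise to the glia and neurons that organise the axon tracts on both sides, and the sim driver directs UAS transgenes to them. From what is known of the study, EnRep joins Dichaete to the repressor domain of Engrailed and HMG- lacks the DNA-binding domain. The labels themselves give only the construct names. Midline cells are few among the cells of an embryo, and the genes sim and w and the GFP and GAL4 transgenes had no probe, so the arrays held no direct measure of the driver.

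Over all 12 arrays the median foreground intensity lay between 247 and 433 for Cy3 and between 280 and 421 for Cy5, and the spot finder accepted 86.8% to 98.3% of spots in Cy3 and 71.9% to 92.9% in Cy5. EnRep replicate 4 stood apart from its group. The median log2 ratio over 15 probes of muscle structure genes was 1.53 on that array and between -0.51 and -0.28 on the other EnRep arrays, and that over 28 cuticle probes was 0.86 against -0.39 to -0.30. Values without that array are given below where they moved a result.

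Of 14485 probes, 4 passed an adjusted p of 0.05 in the limma fit, with Benjamini-Hochberg adjustment over all probes, which is 0.0276% of those tested, and are referred to as called. The probes higher in EnRep embryos were those for ppk20, RFeSP and Fadd (3 probes, 0.0207%), and a single probe without a gene name, reporter 1000035949, was lower (1 probe, 0.0069%). With the replicate number as a block in place of the dye term, 2 probes passed, ppk20 and RFeSP, and none was lower. Leaving out single arrays gave 14 calls without HMG- replicate 2, 12 of them higher, and 2 without EnRep replicate 2, HMG- replicate 1, 3 or 4 or DichaeteWT replicate 1 or 3. Other scalings changed the split of higher and lower calls, to 4 and 3 with scale normalization between arrays and to 2 and 3 with print-tip loess. At an unadjusted p under 0.05, 572 probes were higher (3.95%) and 420 lower (2.9%). The median size of a difference was 0.11 log2, smaller than the median SE of 0.14, and 98.4% of probes differed by less than 0.5 log2. The 95% interval excluded a 2-fold difference for 14009 probes, 96.7% of all, and a 1.5-fold difference for 83.0%. These intervals bound the processed ratio (normexp offset 50, unaccepted spots kept), not the RNA fold, as dim probes depended on the background correction. With an offset of 10, RFeSP differed by 2.75 log2 and 1000035949 by -1.665, in place of 2.00 and -0.92. Without background subtraction RFeSP differed by 1.43 log2.

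**Figure D1:**
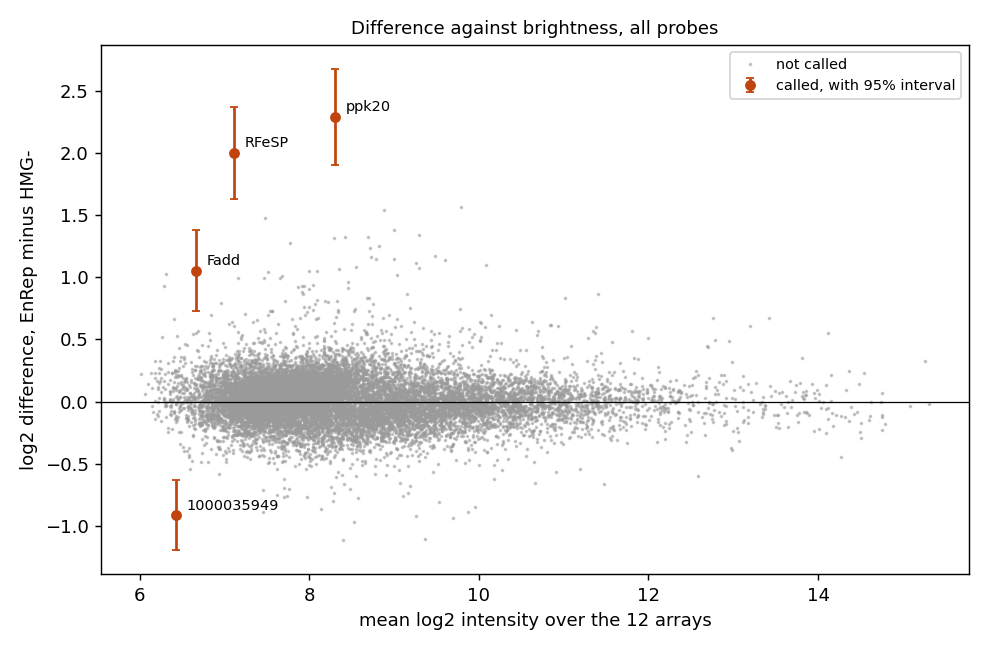
The log2 difference EnRep minus HMG- (vertical axis) is plotted against the mean log2 intensity (horizontal axis) for all 14485 probes. The mean is over the 8 EnRep and HMG- arrays, although the axis label reads 12. The 4 called probes are in orange, with their 95% intervals as bars. ppk20 and RFeSP lie at 2.29 and 2.00 log2, above the rest, while RFeSP, Fadd and 1000035949 lie toward the dim end of the range.

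The gene ppk20 encodes a subunit of the pickpocket family of DEG/ENaC sodium channels, a family known in the fly for mechanical, chemical and pain sensing in later stages. Its log2 ratio over GFP was 2.79, 2.86, 1.90 and 1.77 on EnRep replicates 1 to 4. On HMG- replicates 1 to 4 it was -0.04, 0.28, -0.20 and 0.09. All EnRep arrays lay above all HMG- arrays, the lowest of the former by more than 1 log2 over the highest of the latter, and the HMG- arrays scattered around 0. The difference was 2.29 log2 (SE 0.18, 95% interval 1.90 to 2.68, n = 4 and 4), or 4.90-fold, with a limma adjusted p of 0.000192. In whole-embryo RNA a change in the number of expressing cells and a change in RNA per cell cannot be told apart. DichaeteWT embryos, at 0.17 log2 over GFP, were near the HMG- level. The gap was 2.70 log2 on the arrays with the construct in Cy3 and 1.89 on those in Cy5, where 2 arrays a side did not pass (limma adjusted p = 0.145). Without EnRep replicate 4 it was 2.42 log2 (limma adjusted p = 3.9e-05). The spot was accepted in the HMG- channel on 3 of 4 arrays and in the GFP channel of those arrays on 2 of 4. With only spots accepted in both channels the difference was 2.30 log2.

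Of the pickpocket list, 26 probes for as many genes were measured, and ppk20 was the only member called and the only member with an unadjusted p under 0.05. The median difference over the list was 0.04 log2, beside 0.01 over all probes. The neighbours of ppk20 in RefSeq's gene order include other pickpocket genes. The next gene on each side, ppk21 and ppk30, had differences of 0.18 log2 (SE 0.13) and 0.12 log2 (SE 0.26), and ppk19, 3 places away, had -0.12 log2 (SE 0.16). Within 5 genes on either side, 7 neighbours had a probe, with differences from -0.74 to 0.18 log2 and a smallest limma adjusted p of 0.730. None of these passed.

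RFeSP encodes the Rieske iron-sulphur subunit of respiratory complex III, which passes electrons to cytochrome c, and gave the second clear gap. The EnRep arrays read 2.11, 1.54, 1.60 and 1.53 log2 over GFP. The HMG- arrays read -0.29, -0.61, -0.28 and -0.05. The groups did not overlap, and EnRep replicate 1 stood above the other EnRep arrays. The difference was 2.00 log2 (SE 0.17, 95% interval 1.63 to 2.37, n = 4 and 4), with a limma adjusted p of 0.000267. With the construct in Cy5 only it did not pass, at 1.73 log2 (limma adjusted p = 0.282), and it ranged from 1.43 log2 without background subtraction to 3.51 with local subtraction. In DichaeteWT embryos RFeSP stood at -0.23 log2 over GFP. The spot was dim, accepted in the HMG- channel on 2 of 4 arrays and in the GFP channel of the HMG- arrays on 0 of 4, so the HMG- value is near the lower end of what the array measures. The probe could not be tested when the dimmest 25% of probes or unaccepted spots were left out.

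RFeSP was the only called member among 43 probes for nuclear genes of oxidative phosphorylation. At an unadjusted p under 0.05 it was also the 1 probe that was higher (2.33%), and 5 others were lower (11.6%). Over all probes 3.95% were higher and 2.9% lower at that level. The median difference was -0.06 log2 (-0.18 without EnRep replicate 4), and 15 of 43 were above 0 beside 52.4% of all probes. The complex I subunit ND-PDSW had the lowest value at -0.48 log2 (SE 0.15, limma adjusted p = 0.645), with all 4 EnRep arrays below all 4 HMG- arrays. Among the genes within 5 places of RFeSP, 8 probes gave differences of -0.15 to 0.37 log2 with a smallest limma adjusted p of 0.688.

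Fadd, the death-domain adaptor that links Imd to the caspase Dredd in the fly immune response, was also higher in EnRep embryos, by a smaller margin. Its log2 ratio was 1.59, 1.41, 1.02 and 0.76 in EnRep embryos. It was 0.19, 0.24, 0.13 and 0.02 in HMG- embryos. The groups did not overlap. The difference was 1.05 log2 (SE 0.15, 95% interval 0.73 to 1.38, n = 4 and 4), with a limma adjusted p of 0.0402. With DichaeteWT at 0.69 log2 over GFP, the order was EnRep, DichaeteWT and then HMG-. The call ended with the replicate number as a block (limma adjusted p = 0.200) and held in 7 of 29 alternative settings, which among those that leave out an array were only those without EnRep replicate 4 or DichaeteWT replicate 2 or 4. Fitted values ran from 0.63 to 3.03 log2 over the alternatives. The spot was accepted in the HMG- channel on 1 of 4 arrays and in the GFP channel of those arrays on 0 of 4, so no fold is given.

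No other member of the Imd and Toll immunity list, 22 probes for 19 genes, had an unadjusted p under 0.05. The median difference of the list was 0.00 log2 (-0.03 without EnRep replicate 4). Around Fadd, 7 probes for genes within 5 places had differences of -0.24 to 0.17 log2 (smallest limma adjusted p = 0.763).

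The probe 1000035949 was the single one called lower in EnRep embryos. Its log2 ratios were -0.23, -0.36, 0.07 and -0.34 in EnRep embryos and 0.67, 0.85, 0.66 and 0.62 in HMG- embryos, with no overlap. The fitted difference was -0.92 log2 (SE 0.13, 95% interval -1.20 to -0.64, limma adjusted p = 0.0402). Its spot was accepted in the EnRep channel on 0 of 4 arrays and in the HMG- channel on 3 of 4, so the EnRep level is a bound. The HMG- mean lay 1.34-fold above that bound, a point estimate of the least fold that carries no interval. The estimate sets the HMG- mean against the lowest accepted signal of each EnRep array, or the probe's own signal where higher. DichaeteWT embryos were at 0.51 log2. Fitted values ran from -3.95 to -0.58 log2 over the alternatives. The call held in 9 of 29, among single arrays left out only without EnRep replicate 3 or DichaeteWT replicate 2, and ended with the replicate block (limma adjusted p = 0.179).

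**Figure D2:**
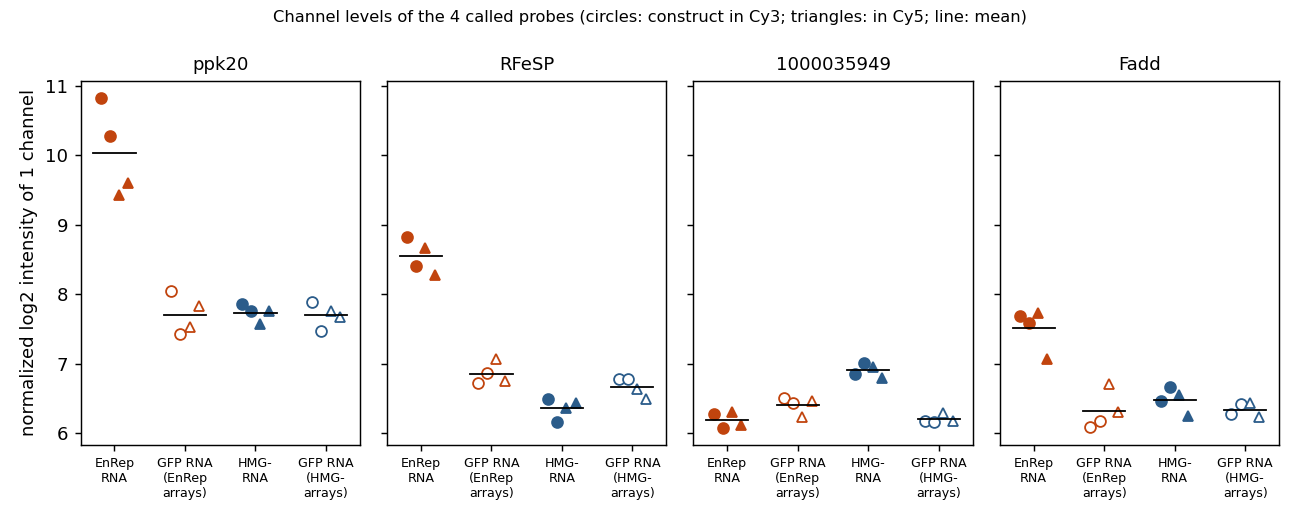
Normalized log2 intensity of single channels (vertical axis) is shown for the 4 called probes, with filled symbols for construct RNA, open symbols for GFP RNA on the same arrays, circles for construct in Cy3, triangles for construct in Cy5 and lines for means of 4 arrays. EnRep RNA of ppk20 averages 10.03 against 7.74 for HMG- RNA, while the GFP channels of the same arrays average 7.71 and 7.70.

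A ratio can differ because the construct channel or the GFP channel differs, and the separate channels were read to tell which. For ppk20 the EnRep channel averaged 10.03 ± 0.65 log2 (SD, n = 4) and the HMG- channel 7.74 ± 0.12, while the GFP channels of those arrays averaged 7.71 ± 0.28 and 7.70 ± 0.17. For RFeSP the construct channels averaged 8.55 ± 0.25 and 6.36 ± 0.14, and the GFP channels 6.85 ± 0.16 and 6.67 ± 0.14. The gaps of ppk20 and RFeSP lay in the construct channel, at 2.30 and 2.18 log2, and those in the GFP channel were 0.01 and 0.18 log2 (limma adjusted p = 0.991 and 0.691). For Fadd the construct channels differed by 1.03 log2 (limma adjusted p = 0.260) and the GFP channels by -0.02. For 1000035949 the construct channels differed by -0.71 log2 (limma adjusted p = 0.497) and the GFP channels, in the opposite direction, by 0.21. Over all probes the construct channels alone gave 2 calls (0.0138%), ppk20 and RFeSP, and 1231 probes (8.5%) with an unadjusted p under 0.05. The GFP channels, which hold the same genotype on both sides, gave 0 calls (0%) in limma, with Aquantile or with quantile normalization, though 1083 probes (7.48%) were under that level before adjustment.

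Below the threshold, the probes with the next smallest p were taken in each direction to a total of 8, and none of these passed. On the higher side, CG13946, an uncharacterised gene, read 0.49, 0.73, 0.17 and 0.40 log2 in EnRep embryos and 0.01, -0.26, -0.19 and -0.27 in HMG- embryos, a difference of 0.63 log2 (SE 0.11, limma adjusted p = 0.171). Its neighbour CG13947, next to it in RefSeq's order and looked up after the values were seen, differed by 1.54 log2 with a far wider spread (SE 0.45, limma adjusted p = 0.591), since EnRep replicate 3 was at -0.13 and the other EnRep arrays at 1.07, 1.70 and 2.13. The other probes of the higher side were tomboy20, a relative of the mitochondrial import receptor subunit Tom20, at 0.55 log2 (SE 0.11), cindr, an adaptor of the CIN85 and CD2AP family, at 0.52 log2 (SE 0.10), 1000044210 at 0.74 log2 (SE 0.12) and 1000035314 at 0.87 log2 (SE 0.18). A second probe for cindr did not share its value, at 0.0057 log2 (SE 0.15). For tomboy20 the spot was accepted on 1 of 4 arrays in each construct channel, and the construct channels differed by 0.25 log2 and the GFP channels by -0.30.

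On the lower side, Sema5c, a transmembrane semaphorin, had the largest size of difference. Its log2 ratios were -0.05, -0.43, -0.49 and -0.42 in EnRep embryos and 0.47, 0.42, 1.07 and 1.10 in HMG- embryos. The groups did not overlap, and the HMG- arrays split by dye. The difference was -1.11 log2 (SE 0.19, 95% interval -1.53 to -0.70, limma adjusted p = 0.131). CG14736 had -0.77 log2 (SE 0.15) and spt4, a transcription elongation factor, had -0.48 log2 (SE 0.10), each with all EnRep arrays below all HMG- arrays. The unnamed probes 1000041947, 1000037757, 1000039807 and 1000031405 had -0.89, -0.87, -0.76 and -0.60 log2. For 1000031405 the construct channels differed by -0.14 log2 and the GFP channels by 0.46. Of the uncalled probes named on either side, some were called under other settings, namely 1000037757 and 1000044210 with scale normalization or array weights, 1000039807 with scale normalization or print-tip loess, CG14736 with print-tip loess, Sema5c with array weights or without EnRep replicate 1, 1000041947 with array weights or without HMG- replicate 2, and 1000035314 without HMG- replicate 2. Over all probes, all 4 EnRep arrays lay above all 4 HMG- arrays for 220 (1.52%) and below them for 172 (1.19%).

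**Figure D3:**
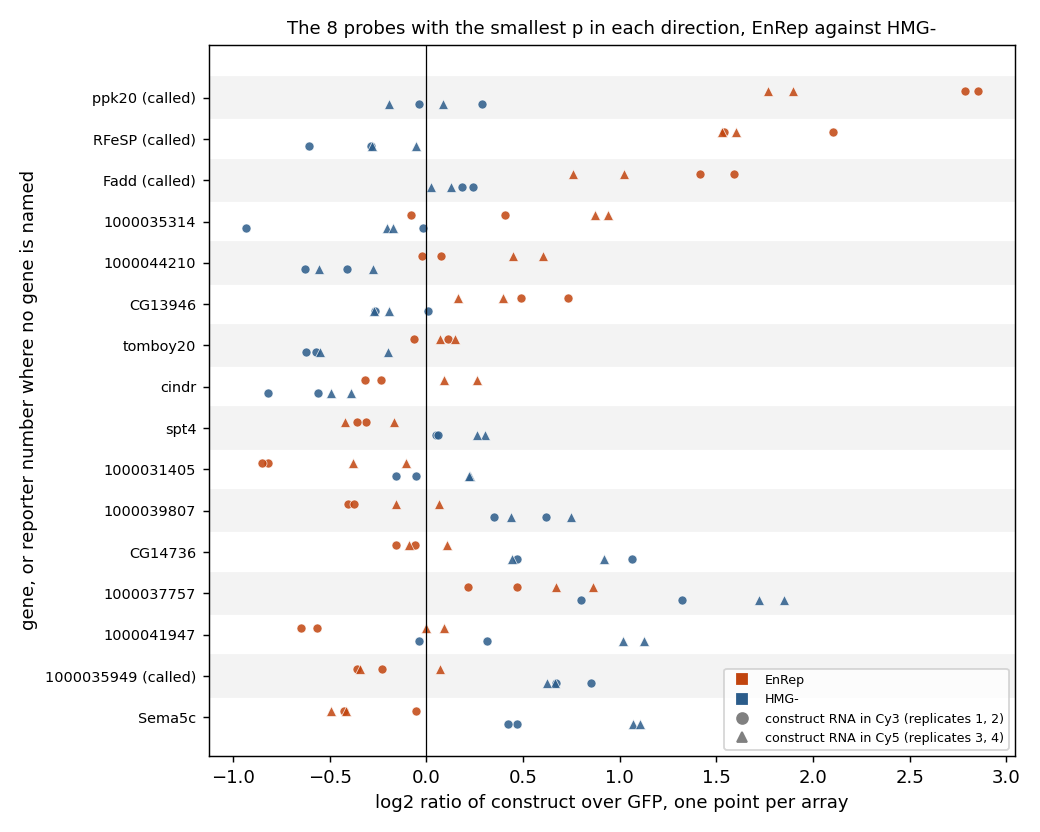
The log2 ratio over GFP on each array (horizontal axis) is plotted for the 8 probes with the smallest p in each direction, EnRep in orange and HMG- in blue, circles for construct in Cy3 and triangles for construct in Cy5. The EnRep points of ppk20 run from 1.77 to 2.86 and those of RFeSP from 1.53 to 2.11, away from the HMG- points, while most of the uncalled probes show groups that lie side by side.

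The gene D, from which the constructs derive, was not called. D read 0.68, 0.71, 0.08 and 0.01 log2 over GFP in EnRep embryos. It read 0.58, 0.71, -0.28 and -0.24 in HMG- embryos, so in each group the arrays with the construct in Cy3 were the higher. The difference was 0.17 log2 (SE 0.11, 95% interval -0.06 to 0.41, limma adjusted p = 0.807), and with median centring in place of loess its sign turned (-0.02 log2). The files do not say whether the D probe also detects transcripts of the transgenes.

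Genes known to act with or downstream of Dichaete in the midline and neuroectoderm were likewise not called. The midline repellent gene sli differed by 0.07 log2 (SE 0.12), comm, which keeps Robo receptors off the growth cone, by -0.06 (SE 0.15), and the POU factor gene vvl by 0.04 (SE 0.21). The SoxB gene SoxN, a partner of Dichaete in the neuroectoderm, differed by 0.15 (SE 0.19), the segment polarity gene en by 0.08 (SE 0.15), and the proneural genes ac and l(1)sc by -0.23 (SE 0.17) and -0.06 (SE 0.13). The EGF receptor inhibitor kek1, at -0.40 log2 over GFP in EnRep and -0.61 in HMG- embryos, differed by 0.20 (SE 0.12). The limma adjusted p of these 8 genes ran from 0.800 to 0.985, and their 95% intervals all lay between -0.59 and 0.56 log2. Signs of sli, comm, vvl, SoxN, en and l(1)sc turned under some alternative settings.

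The lists that contain these genes held no called member, beside a median of 0.01 log2 over all probes. Of 12 probes for Dichaete and midline targets, 0 had an unadjusted p under 0.05, with a median of 0.06 log2 (limma adjusted p at least 0.807), a median that was -0.05 with median centring. The same held for 18 probes of midline primordium and glia (median 0.06 log2, 0 with an unadjusted p under 0.05) and for 17 of midline neurons (0.08 log2, 0). Of 25 proneural and neuroblast probes 1 was higher at an unadjusted p under 0.05 (4%, beside 3.95% of all probes). It was that of cas, a late temporal factor of neuroblasts, at 0.30 log2 (SE 0.13, limma adjusted p = 0.711). Of 6 SoxB and neuroectoderm column probes 1 was lower at that level (16.7%, beside 2.9% of all probes). It was that of Sox21a at -0.33 log2 (SE 0.15, limma adjusted p = 0.726). In the Notch list of 16 probes 2 were lower at an unadjusted p under 0.05 (12.5%, beside 2.9% of all probes). These were Ocho, a Bearded family inhibitor, at -0.51 log2 and fng, which modifies the Notch receptor, at -0.34 log2. Without EnRep replicate 4 the medians were higher, at 0.15 log2 for Dichaete and midline targets, 0.16 for midline primordium and glia, 0.16 for midline neurons, 0.13 for proneural and neuroblast genes, 0.13 for SoxB and neuroectoderm columns and 0.02 for the Notch list.

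No histone gene was called, and the 9 probes of the histone list were split, with 5 above 0 (55.6%, beside 52.4% of all probes) and 4 below. Above 0 were the 5 replication-dependent genes, which were looked at together after their values were seen. These genes, transcribed in S phase from a repeated cluster, have near-identical copies that the probes may not tell apart. The median log2 ratio over the 5 probes was 0.40, 0.43, 1.29 and 1.01 on the EnRep arrays. On the HMG- arrays it was -0.35, 0.41, 0.32 and 0.39. HMG- replicate 1 lay below all others and the EnRep arrays in Cy5 above all others, while the Cy3 EnRep arrays were close to the remaining HMG- arrays. His2B:CG17949 differed by 0.67 log2 (SE 0.17, limma adjusted p = 0.453), His3:CG31613 by 0.61 (SE 0.17), His4:CG31611 by 0.55 (SE 0.15), His1:CG31617 by 0.49 (SE 0.16) and His2A:CG31618 by 0.45 (SE 0.17). Without HMG- replicate 1 the median difference over the 5 was 0.47 log2 in place of 0.55, and without HMG- replicate 2, 1 of the 5 was called. The members below 0 were BigH1, His4r, His2Av and Slbp. BigH1, the linker histone of the early embryo and germ line, differed by -0.66 log2 (SE 0.21, limma adjusted p = 0.650). It read 0.99, 0.76, -0.62 and -0.62 on the EnRep arrays and 0.87, 0.97, 0.72 and 0.59 on the HMG- arrays. The groups overlapped in Cy3, and the gap of BigH1 lay in Cy5. The histone genes His4r and His2Av, outside the repeated cluster, differed by -0.35 (SE 0.17) and -0.09 (SE 0.12). Slbp, whose product binds histone mRNA, differed by -0.21 (SE 0.13). The 20 probes of DNA replication and S phase had a median of -0.01 log2 (0.08 without EnRep replicate 4). At an unadjusted p under 0.05, 0 were higher and 1 lower (5%, beside 2.9% of all probes).

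Maternal and germ line transcripts lay lower in EnRep than in HMG- embryos, again with none called. Of 24 probes for maternal transcripts that are cleared early, 21 were below 0, and the 12.5% above 0 stand beside 52.4% of all probes. Of the 24, 6 had an unadjusted p under 0.05 and were lower (25%, beside 2.9% of all probes), 0 were higher, and the median was -0.23 log2. Of 19 pole plasm and germ cell probes, a list that shares genes with the former, 17 were below 0 and 10.5% above it. Of the 19, 6 were lower at that level (31.6%) and the median was -0.18 log2, or -0.11 without EnRep replicate 4. The gene osk, which assembles pole plasm, has 2 probes, which differed by -0.74 log2 (SE 0.20, limma adjusted p = 0.508) and -0.70 (SE 0.18, limma adjusted p = 0.494). For the former, EnRep arrays read -0.01, 0.19, -0.17 and -0.10 and HMG- arrays 0.19, 0.73, 1.13 and 0.81. The germ line innexin gene zpg read 0.24, -0.02, -0.06 and -0.09 in EnRep and 0.33, 0.35, 1.21 and 1.24 in HMG- embryos, a difference of -0.76 log2 (SE 0.21, limma adjusted p = 0.532). swa, which localises bicoid RNA, differed by -0.92 log2 (SE 0.32), piwi, of the germ line piRNA pathway, by -0.43 (SE 0.15), and the helicase gene vas by -0.26 (SE 0.11). In zpg, swa and both osk probes the HMG- arrays in Cy5 were the highest. The osk probe with the difference of -0.70 log2 read -0.24, 0.04, 0.13 and 0.16 on EnRep replicates 1 to 4. It read 0.09, 0.35, 1.14 and 1.29 on HMG- replicates 1 to 4, so its groups overlapped. The median of the pole plasm list was -0.05 log2 within Cy3 and -0.33 within Cy5, and that of the maternal list -0.16 and -0.28. Without HMG- replicate 3 the maternal median was -0.13 log2.

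Mitochondrial ribosomal proteins, a list made after the values were seen, had mostly small differences below 0. Of 68 probes 57 were below 0, and the 16.2% above 0 stand beside 52.4% of all probes. Of the 68, 15 had an unadjusted p under 0.05 and were lower (22.1%, beside 2.9% of all probes) and 0 were higher, with a median of -0.15 log2. The lowest were mRpL37 at -0.50 log2 (SE 0.11, limma adjusted p = 0.321), mRpL16 at -0.50 (SE 0.13) and mRpL18 at -0.47 (SE 0.11). For mRpL16, EnRep arrays read -0.21, -0.28, -0.27 and -0.29 and HMG- arrays 0.32, 0.10, 0.27 and 0.25, with no overlap. The largest difference of the list was above 0, that of mRpL42 at 0.93 log2 (SE 0.46, limma adjusted p = 0.755), which read -2.93 on HMG- replicate 3 and between -0.29 and 0.41 on the other 7 arrays, and was 0.25 log2 without that array. The list's median was -0.15 within Cy3 and -0.12 within Cy5, and -0.19 without EnRep replicate 4. Cytosolic ribosomal proteins, also added later, had a median of -0.11 log2 over 52 probes. At an unadjusted p under 0.05, 1 of them was lower (1.92%) and 0 higher. Proteasome subunits had -0.07 over 42 probes, with 4 lower (9.52%) and 2 higher (4.76%, beside 3.95% of all probes).

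Among smaller families, the α subunits of prolyl 4-hydroxylase, enzymes that hydroxylate collagen, had 7 of 8 probes above 0 (87.5%, beside 52.4% of all probes). Their median was 0.22 log2, and this list was also chosen after its values were seen. PH4alphaSG2 differed by 0.57 log2 (SE 0.14), PH4alphaNE1 by 0.52 (SE 0.13) and PH4alphaMP by 0.47 (SE 0.16), the smallest limma adjusted p being 0.437. PH4alphaNE1 was steady in EnRep embryos, at 0.52, 0.49, 0.53 and 0.50 log2, and read 0.21, 0.03, -0.37 and 0.08 in HMG- embryos. Haemocyte genes, 18 probes with a median of 0.06 log2, had 2 higher at an unadjusted p under 0.05 (11.1%, beside 3.95% of all probes) and 0 lower. These were PPO1, the crystal cell prophenoloxidase, at 0.58 log2 (SE 0.15, limma adjusted p = 0.473) without overlap, and 1 of 2 probes for Pxn, peroxidasin, at 0.26 (SE 0.11), while the other Pxn probe had -0.11 (SE 0.12).

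Of 63 cytochrome P450 probes 3 were higher at an unadjusted p under 0.05 and 0 lower, with a median of 0.07 log2 (0.04 without EnRep replicate 4). That share, 4.76%, is near the 3.95% of all probes. Cyp28d2 had the largest difference at 0.68 log2 (SE 0.20, limma adjusted p = 0.591), being -0.41 over GFP in EnRep and -1.09 in HMG- embryos. Heat shock genes went both ways. The small chaperone gene Hsp27 read -0.15, 0.50, -0.24 and -0.13 in EnRep and 0.72, 0.71, 0.88 and 0.90 in HMG- embryos, a difference of -0.81 log2 (SE 0.20, limma adjusted p = 0.453). Hsp70Ba, of the inducible Hsp70 cluster with near-identical copies, differed by 0.60 log2 (SE 0.27, limma adjusted p = 0.726). The median over the 11 heat shock probes was 0.01 log2, -0.17 with the construct in Cy3 only and 0.22 in Cy5 only. Without EnRep replicate 4 that median was -0.10 log2.

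Many of the largest differences rested on EnRep replicate 4. Of 30 probes with a difference over 1 log2, 21 were higher on that array than on any other EnRep array by over 1 log2, and 6 remained over 1 log2 without it. Another 5 had a value under -2.5 on HMG- replicate 3 alone. The cuticle list held 3 of the 30. Gasp, a chitin-binding protein of the trachea and cuticle, read -0.98, -0.57, -0.68 and 2.18 log2 on the EnRep arrays and between -0.99 and -0.38 on the HMG- arrays, a difference of 0.73 log2 (SE 0.62) that was -0.11 without replicate 4. Vajk1, another cuticle gene, read 1.62 on that array and -0.68 to -0.55 on the others. Of 28 cuticle probes 24 were above 0 (85.7%, beside 52.4% of all probes), but 0 had an unadjusted p under 0.05. The list's median fell from 0.25 to 0.04 log2 without replicate 4. The median of 15 muscle probes was 0.10 log2, and -0.37 without it. Without this array the differences of ppk20, RFeSP and Fadd were 2.42, 2.07 and 1.17 log2, each called.

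**Figure D4:**
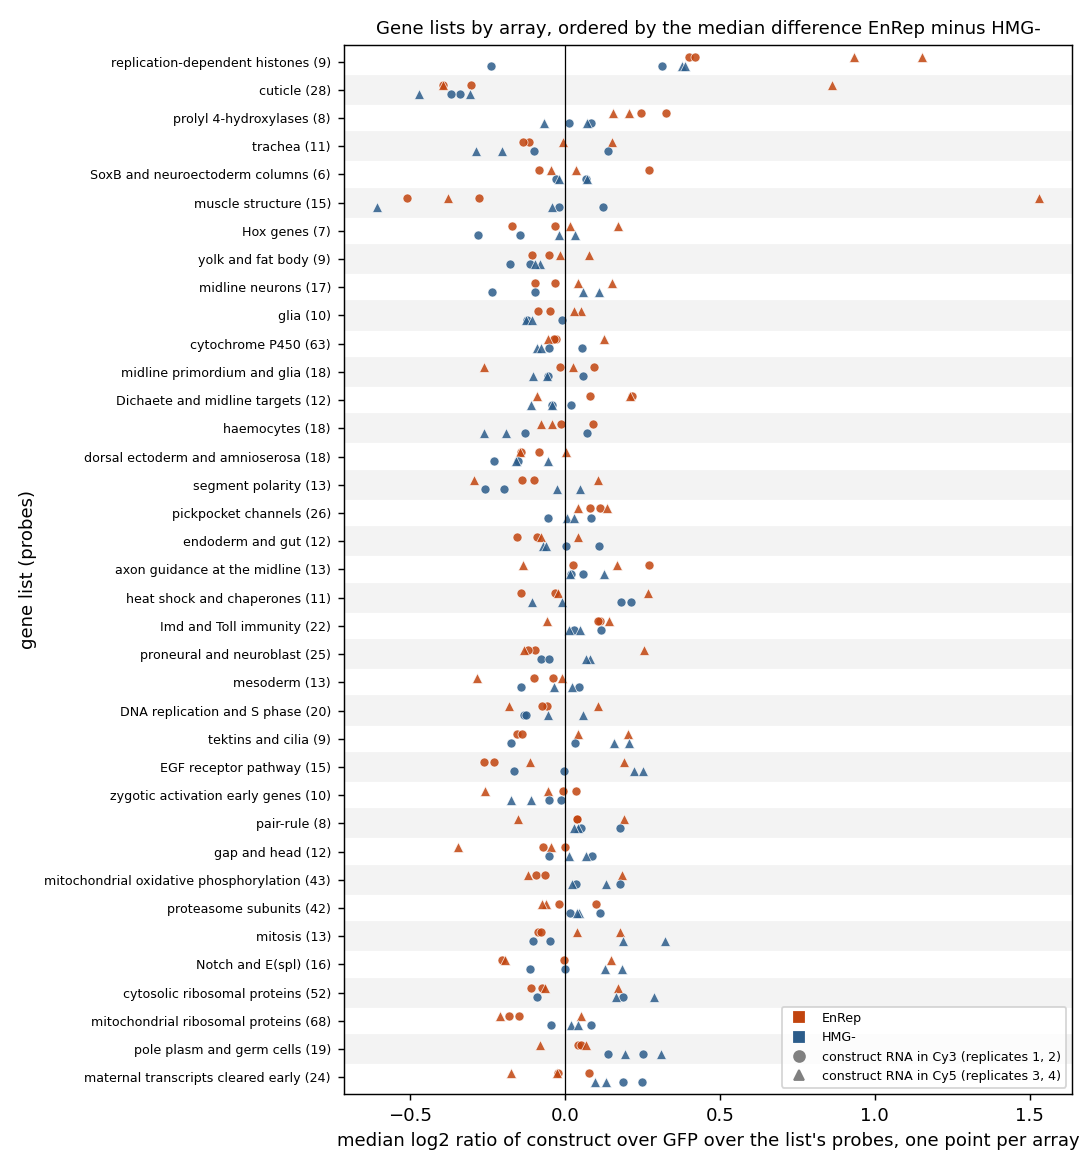
Median log2 ratio over GFP on each array (horizontal axis) is shown for each gene list with at least 3 probes, ordered by the median difference, with EnRep in orange and HMG- in blue, circles for construct in Cy3 and triangles for construct in Cy5, and probe numbers in brackets. Histones stand highest, at 0.45 log2 over 9 probes, and maternal transcripts lowest, at -0.23, and EnRep replicate 4 lies far right for muscle and cuticle.

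The remaining lists hold markers of other cell types and patterning genes. Glia (10 probes, 0.07 log2), endoderm and gut (12, 0.03), trachea (11, 0.14), and yolk and fat body (9, 0.09) had at most 1 probe with an unadjusted p under 0.05. Medians were 0.04 log2 for segment polarity genes, -0.04 for pair-rule genes, -0.06 for gap and head genes, 0.10 for Hox genes, 0.05 for dorsal ectoderm, -0.0014 for mesoderm, -0.03 for the EGF receptor pathway, 0.01 for axon guidance at the midline, -0.03 for early zygotic genes, -0.07 for mitosis and -0.01 for tektins and cilia. Without EnRep replicate 4 the trachea median was -0.01 log2, pair-rule genes had the lowest of these medians at -0.08 and Hox genes the highest at 0.13. Those of gap and head, EGF receptor, early zygotic and mesoderm genes turned positive without that array, at 0.07, 0.04, 0.03 and 0.08 log2. Leaving aside the lists made after the values were seen, 33 lists had 3 or more probes. Of these, 3 held a called member, namely ppk20, RFeSP and Fadd. The lists were chosen with earlier results of these data known, so the count is not independent of those calls.

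Genes that stood apart from GFP under both constructs are given side by side, as the comparisons use the same control genotype and may share its RNA. EnRep over GFP gave 62 higher (0.428%) and 47 lower (0.324%) probes, and HMG- over GFP gave 61 higher (0.421%) and 63 lower (0.435%). For 35 probes that passed in each of these, the difference between constructs ran from -0.87 log2 (1000037757) to 0.42 log2 (EAChm), and none passed in the fit reported. HnRNP-K, an RNA-binding protein, has 2 probes, which read -1.07 and -0.84 log2 over GFP in EnRep and -1.18 and -0.98 in HMG- embryos. Their differences were 0.11 log2 (95% interval -0.18 to 0.41) and 0.14 log2 (-0.12 to 0.41). Cyp4p2, a cytochrome P450, was at -1.07 and -1.41 log2, a difference of 0.34 log2 (95% interval -0.06 to 0.75). EAChm, named for enhancing the acetyltransferase Chameau, was at -1.004 and -1.426 log2, a difference of 0.42 log2 (95% interval -0.03 to 0.87). These intervals exclude a 2-fold difference in the processed ratio but do not show that the constructs act alike. Of 198 probes that passed over GFP for at least 1 of the constructs, 74 passed for EnRep only and 89 for HMG- only. All 4 probes called in the difference, 0.0276% of all probes, lay among these single-construct probes. A probe that passed for a single construct was thus mostly not shown to differ between them.

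**Figure D5:**
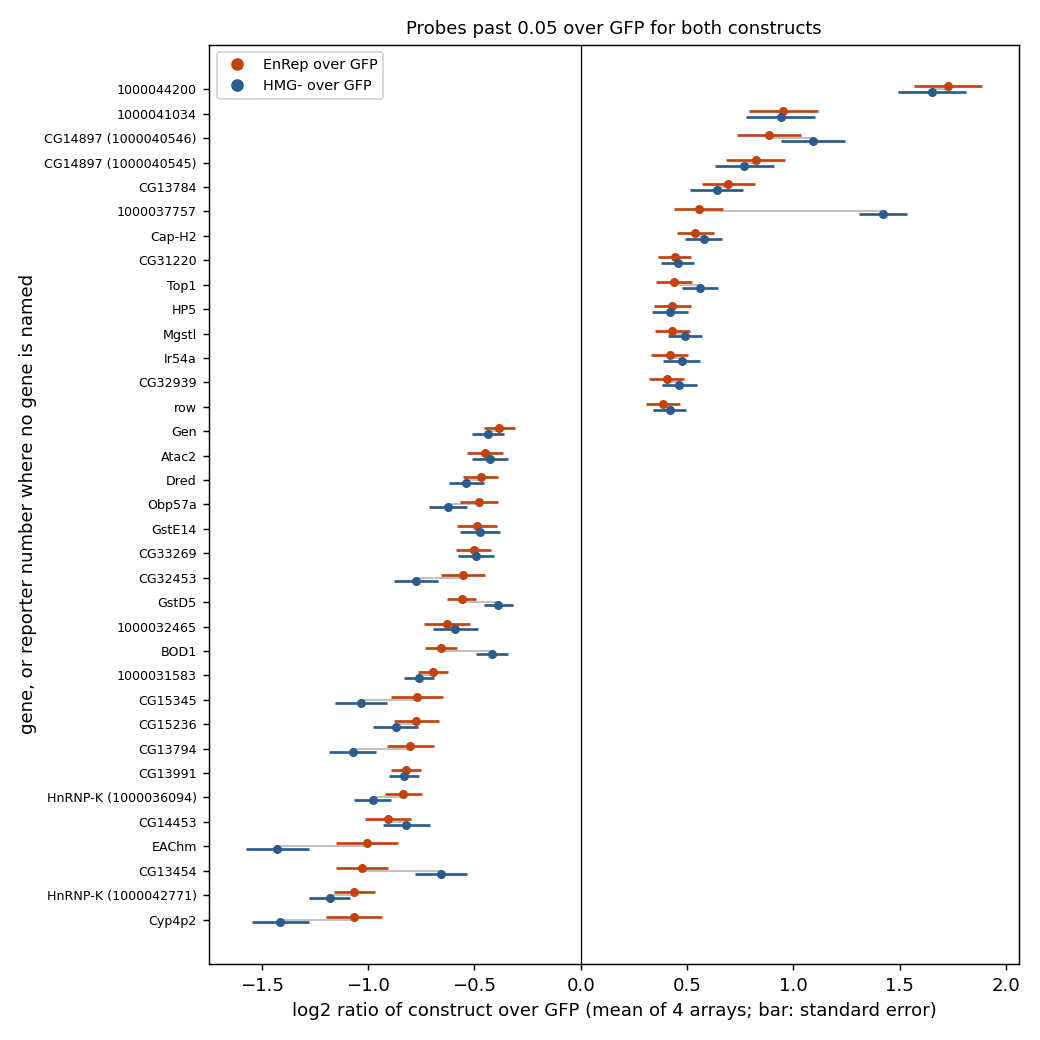
Mean log2 ratio over GFP with its standard error (horizontal axis) is shown for the 35 probes past an adjusted p of 0.05 in both EnRep (orange) and HMG- (blue). They were selected by that adjusted p in each, not by the size of the ratio. The widest gap is that of 1000037757, at 0.55 for EnRep and 1.42 for HMG-.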

How the data were processed

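Labelled RNA was hybridised to two-colour arrays, 1 per biological replicate. Per the file headers, the deposited array files hold, for each spot and dye, the median pixel intensity of the spot and of its surroundings, as the Dapple spot finder measured it, before normalization. The authors' value table holds deposited log2 ratios, with array medians of -0.034 to 0.019. Its direction was checked against the dyes, and its background correction and normalization are not given in the sources used here. The submitters' processing notes name limma without a version.

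R 4.3.3 and limma 3.58.1 were used. Normexp background correction (offset 50) was run on all 18240 spots, the 14569 spots of the value table were kept, and each array was normalized by global loess. Ratios were turned to construct over GFP and averaged per probe (14485 probes, 12574 with 1 gene symbol, 96 with several, 1815 with none). Of these, 11928 matched a RefSeq gene table (Release 6 plus ISO1 MT) used for names and neighbours only. A linear model over 12 arrays fitted each construct's mean and 1 dye term, with 8 residual and 4.64 prior degrees of freedom. Tests were two-sided, adjusted by Benjamini-Hochberg over all probes, with 0.05 as the threshold. Dye terms were called for 4793 probes. Channel levels used loess and Aquantile. The number of arrays limits the precision.

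Named probes were those called (up to 15 in each direction), filled to 8 in each direction by the smallest p, a fixed set of Dichaete and midline genes, and up to 4 members with the smallest p in each list. Genes described as called over GFP in both constructs, Gasp, Vajk1, the neighbours and 4 lists were chosen after their values were seen. The comparison, its members and the lists were chosen with earlier results of these data known. The model was run on simulated ratios with known differences added and independent noise on each array. That run cannot speak to correlated arrays, a deviating array or dim spots, since it held none of these. Alternatives changed the background correction, normalization, filters, dye term, arrays and variance model, and left out each array. Replicate numbers were checked for pairing: deviations from the group means of same-numbered EnRep and HMG- arrays correlated at 0.39, 0.42, 0.52 and 0.26. Each EnRep array correlated best with its own number, but HMG- replicate 4 did so with EnRep replicate 3 (0.50). Deviations were also taken from the mean of the 2 arrays that shared a group and a dye orientation. Same numbers then correlated at 0.18 and 0.23. Different numbers in the same orientation gave -0.18 and -0.23, values fixed by taking deviations from a mean of 2 arrays. Some pairs of opposite orientation reached 0.28. That check therefore cannot decide whether same-numbered arrays are paired. The number also fixes the dye, so part of the correlation of deviations from the group means is dye. Values with the number as a block stand beside the results they change.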

Additional observations from a re-analysis of the deposited data

Results flagged for a closer look

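Within groups of 4 arrays, 17 of 210 groups checked held an array whose gap to its nearest neighbour took up most of the group's range, where chance alone marks about 1 in 20. EnRep replicate 4 was that array in 6 of them, at 2.18 log2 for Gasp, 1.62 for Vajk1, and, as list medians, 1.53 for muscle, 0.86 for cuticle, 0.13 for cytochrome P450 and 0.17 for cytosolic ribosomal proteins. Other EnRep arrays were replicate 1 for RFeSP, at 2.11 log2 with the others at 1.53 to 1.60, and for Sema5c, at -0.052 with the others at -0.49 to -0.42. Replicate 2 stood at 0.50 for Hsp27, against -0.24 to -0.13 on the others, and replicate 3 at 0.25 for the proneural list median, against -0.13 to -0.10. Of the HMG- arrays, replicate 1 was low for His4:CG31611, at -0.24 against 0.32 to 0.41, and for the median of the whole histone list, also at -0.24. It was the highest for the glia list, at -0.0089 against -0.13 to -0.11. HMG- replicate 2 stood at -0.80 for Cyp4p2, with the others at -1.70 to -1.56, at -0.15 for ppk21 and at 0.18 for the pair-rule list median. HMG- replicate 3 stood at -2.93 for mRpL42, with the others at -0.29 to -0.05.

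The effects over GFP differed between the constructs by the test of the difference itself for ppk20 (2.29 log2), RFeSP (2.00), Fadd (1.05) and 1000035949 (-0.92).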

How the results depend on the processing

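With the setting changed in each of 31 ways, ppk20 was called in 30 of 31 (1.89 to 2.70 log2), RFeSP in 28 of 29 (1.43 to 3.51), Fadd in 7 of 29 (0.63 to 3.03) and 1000035949 in 9 of 29 (-3.95 to -0.58), the last 3 having no value without dim probes or unaccepted spots. The exception for ppk20 and RFeSP was the construct in Cy5 only. Against 4 calls, 3 higher and 1 lower, there were 2 higher and 0 lower (2 in all) without background subtraction, with local subtraction, without a dye term, with the replicate block, on the EnRep and HMG- arrays only, and, tried after seeing the data, with normexp on the analysed spots, with loess on all spots and in the construct channel alone. Calls numbered 1 higher and 0 lower without the dimmest probes or unaccepted spots, 7 (4 higher, 3 lower) with scale normalization, 8 (4 and 4) with array weights, and 5 (2 and 3) with print-tip loess. With the construct in Cy3 only there were 10, of which 7 lower, and in Cy5 only 0. Leaving out 1 array gave 2 to 14 calls, 2 to 12 higher and 0 to 2 lower, with 14 only without HMG- replicate 2. Signs turned in 32 of 2091 alternative values for 68 probes, none of them of a called probe. Those were, with median centring, D (-0.016), en (-0.033), SoxN (-0.053) and HnRNP-K (-0.087 and -0.094), and with the deposited ratios HnRNP-K (-0.023 and -0.026). In Cy5 only they were sli (-0.029), vvl (-0.17), en (-0.033), comm (0.20), ppk30 (-0.029) and HnRNP-K (-0.048), and in Cy3 only SoxN (-0.25), Gasp (-0.18) and EAChm (-0.010). In the construct channel they were sli (-0.051), en (-0.013), comm (0.20), ppk30 (-0.35), cas (-0.41), His2Av (0.15) and His4r (0.21), and with array weights l(1)sc (0.022) and comm (0.091). Without 1 array they were vvl (-0.14) and en (-0.031) without EnRep replicate 2, HnRNP-K (-0.0023) without EnRep replicate 1, l(1)sc (0.022) and Gasp (-0.11) without EnRep replicate 4, l(1)sc (0.050) without HMG- replicate 2 and comm (0.052) without HMG- replicate 1. List medians moved beyond the spread between arrays in 33 of 1147 values. Over the settings that left out 1 array, en ran from -0.031 to 0.22, comm from -0.19 to 0.052, Gasp from -0.11 to 1.10 and HnRNP-K from -0.0023 to 0.22. In the difference between constructs the replicate block changed no other call among the probes named, and it was not run for the ratios over GFP. The cause of these changes was not tested. Dim spots limit RFeSP, Fadd and 1000035949, and 4 arrays a group limit every value.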
